A study of Mus musculus with 2 samples.

Results

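Skeletal muscle genes were examined in ureters of mouse embryos labelled as Tbx2-GOF, which carried a Tbx2 allele at Hprt together with cre at Tbx18. TBX2 is a T-box transcriptional repressor. The set was 40 named genes, and probes were chosen by the gene name in the scanner files. This gave 50 probes for 39 of the 40 names, out of 39429 probes on the array. Klhl41 was listed under its older name Kbtbd10 and was found through its RefSeq accession, so that each of the 40 genes had at least 1 probe. The genes were chosen with their response on these same 2 arrays known, so their ratios are given as a description and no test is drawn from them.

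Skeletal muscle forms from progenitors that express Pax7 and the myogenic regulatory factors Myf5, Myod1, Myog and Myf6, a family of basic helix-loop-helix proteins. These factors bind E-boxes and, together with MEF2 proteins, switch on the myosins, actins and troponins of the sarcomere, the acetylcholine receptor of the junction and, later, enzymes of the working fibre. The wall of the mature ureter holds smooth muscle, which uses other contractile isoforms. In the trunk, skeletal muscle of the body wall lies close to the urinary tract.

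Each of 2 two-colour arrays held 1 extract of Tbx2-GOF ureters, Tbx18(cre/+);Hprt(Tbx2/Y), and 1 extract of control ureters, Tbx18(+/+);Hprt(Tbx2/Y). Embryos were male, of NMRI stock and at E13.5. Both genotypes carried the Tbx2 allele at Hprt, and the Tbx2-GOF embryos also had cre in place at 1 Tbx18 allele, so they differ from controls in Tbx18 dosage as well as in cre. The labels do not say how many embryos made up an extract, nor whether array 2 repeated the embryos of array 1. The dyes were exchanged between arrays: Tbx2-GOF was red on array 1 and green on array 2. Extract, array and dye orientation therefore cannot be told apart.

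On the arrays, 66.7% and 72.7% of probes were well above background in the Tbx2-GOF channel, and 70.5% and 66.4% in the control channel. Genes listed as markers of the labelled tissue were detected: 6 of 6 for ureteric mesenchyme and 7 of 7 for urothelium were well above background in all 4 channels. Whether these genes are confined to that tissue was not tested, so their detection does not identify it. Of these genes, limma called Foxd1 (log2 ratios of -0.77 and -1.19) and Upk3a (-0.85 and -0.86) lower in Tbx2-GOF (0.280% of all genes tested). The levels of Upk3a overlapped between genotypes. At an unadjusted p under 0.05, limma had 2 mesenchyme genes lower and 1 higher, and 2 urothelial genes lower and 3 higher. Of all genes tested, 3.71% were lower and 5.63% higher at that threshold. The median ratios of the lists were -0.23 and 0.32. Tbx2 had log2 levels of 12.07 and 11.48 in the control extracts and 12.10 and 12.03 in the Tbx2-GOF extracts. Its log2 ratios were 0.04 and 0.56, the genotypes overlapped, and array 1 showed no gain (limma adjusted p = 0.711). Tbx18, of which the Tbx2-GOF embryos had 1 allele replaced by cre, was at -0.31 and -0.59, with no overlap (limma adjusted p = 0.266). Both Tbx2-GOF levels lay below both control levels for 16.3% of all genes tested, so a lack of overlap is common. Which part of either transcript the probes read was not determined, and the genotypes are named here as the labels give them.

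Muscle genes are known to be regulated through short elements upstream of their start sites. RefSeq start sites (GRCm38.p6) were found for 31 of the 40 genes, with 34 start sites in all. The 150 bases before the start are printed 5′ to 3′ for 6 genes that were lower on both arrays: a myogenic factor, a receptor subunit, a myosin-binding protein, both sarcomeric actins and a secreted inhibitor. Capitals mark matches, on either strand, to the E-box CANNTG, the CArG box, the M-CAT element GGAATG or the T-box half-site GGTGTG.
Myog (chr1:134289854-134290003, + strand): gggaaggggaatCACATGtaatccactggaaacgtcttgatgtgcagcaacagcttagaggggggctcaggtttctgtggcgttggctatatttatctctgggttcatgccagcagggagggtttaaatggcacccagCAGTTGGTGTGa
Chrna1 (chr2:73580339-73580488, - strand): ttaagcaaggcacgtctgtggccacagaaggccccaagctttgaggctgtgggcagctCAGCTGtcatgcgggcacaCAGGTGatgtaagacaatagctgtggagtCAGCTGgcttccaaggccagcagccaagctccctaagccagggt
Mybph (chr1:134193298-134193447, + strand): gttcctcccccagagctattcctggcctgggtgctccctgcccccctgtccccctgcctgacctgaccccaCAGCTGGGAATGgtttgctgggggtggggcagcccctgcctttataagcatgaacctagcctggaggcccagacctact
Acta1 (chr8:123894776-123894925, - strand): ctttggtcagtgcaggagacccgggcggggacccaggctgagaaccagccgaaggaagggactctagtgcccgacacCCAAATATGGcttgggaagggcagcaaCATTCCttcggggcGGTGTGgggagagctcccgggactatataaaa
Actc1 (chr2:114052876-114053025, - strand): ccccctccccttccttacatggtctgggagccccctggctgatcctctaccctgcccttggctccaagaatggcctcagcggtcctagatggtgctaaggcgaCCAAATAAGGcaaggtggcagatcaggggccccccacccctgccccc
Mstn (chr1:53061490-53061639, + strand): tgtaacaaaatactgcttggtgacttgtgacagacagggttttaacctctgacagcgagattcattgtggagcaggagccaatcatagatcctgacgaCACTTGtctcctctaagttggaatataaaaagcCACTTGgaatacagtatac
In Myog the E-box CAGTTG, from base -12 to -7, overlapped by 1 base with the T-box half-site at -7 to -2. Chrna1 held 3 E-boxes, CAGCTG at -92 and -44 and CAGGTG at -73. In Mybph the E-box CAGCTG at -79 was followed directly by the M-CAT element at -73. Acta1 and Actc1 each held a CArG box, CCAAATATGG at -73 and CCAAATAAGG at -47, and Acta1 also an M-CAT element at -46 and a T-box half-site at -32.

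Counts over the 250 bases before each start set these against all 32851 start sites in the table. CAGCTG was in 13 of the 34 skeletal muscle start sites (38.2%) and in 4271 of all, CAGGTG in 23.5% and 17.2%, and any E-box CANNTG, which includes both, in 82.4% and 66.2%. The MEF2 consensus was in 11.8% and 2.92%, GGAATG in 20.6% and 12.6%, and the CArG box in 5.88% and 1.47%. The T-box half-site GGTGTG was in 20.6% of the skeletal muscle start sites and 16.3% of all. A match is a run of letters and not a shown binding site.

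In Tbx2-GOF extracts the skeletal muscle genes were lower, and by the median ratio of each role group the sarcomere genes most so. Ratios are log2 of Tbx2-GOF over control on each array, and means carry the SD of the 2 arrays (n = 2). Of the 40 genes, 39 passed the filter on dim probes. Myf5 did not, with its probe not well above background in any channel. The median ratio of the 39 was -0.98. Array 1 gave -1.67 and array 2 gave -0.51, while over the 21097 genes tested it was 0.00. A ratio below 0 on both arrays was found for 36 of the 39 genes (25.1% of all genes tested). At least 1.5-fold lower on both arrays were 16 (0.545% of all genes tested), and 0 were that much higher (0.825% of all). The genes were chosen on this contrast, so nothing is read from these shares. In whole-tissue RNA, fewer cells of a type and less RNA per cell cannot be told apart.

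The 2 arrays differed in how far the genes were down. On array 1, 31 of the 39 genes were at least 1.5-fold lower (1.65% of all genes tested), and on array 2, 16 were (2.26%). The ratio was farther down on array 1 for 33 of the 39 genes, against 51.0% of all genes tested. Across the 39 genes the ratios of the 2 arrays had Pearson's r = 0.69 and Spearman's rho = 0.71. The genes share their extracts and dyes, so this is a description of their order: genes farther down on one array tended to be farther down on the other.

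**Figure D1:**
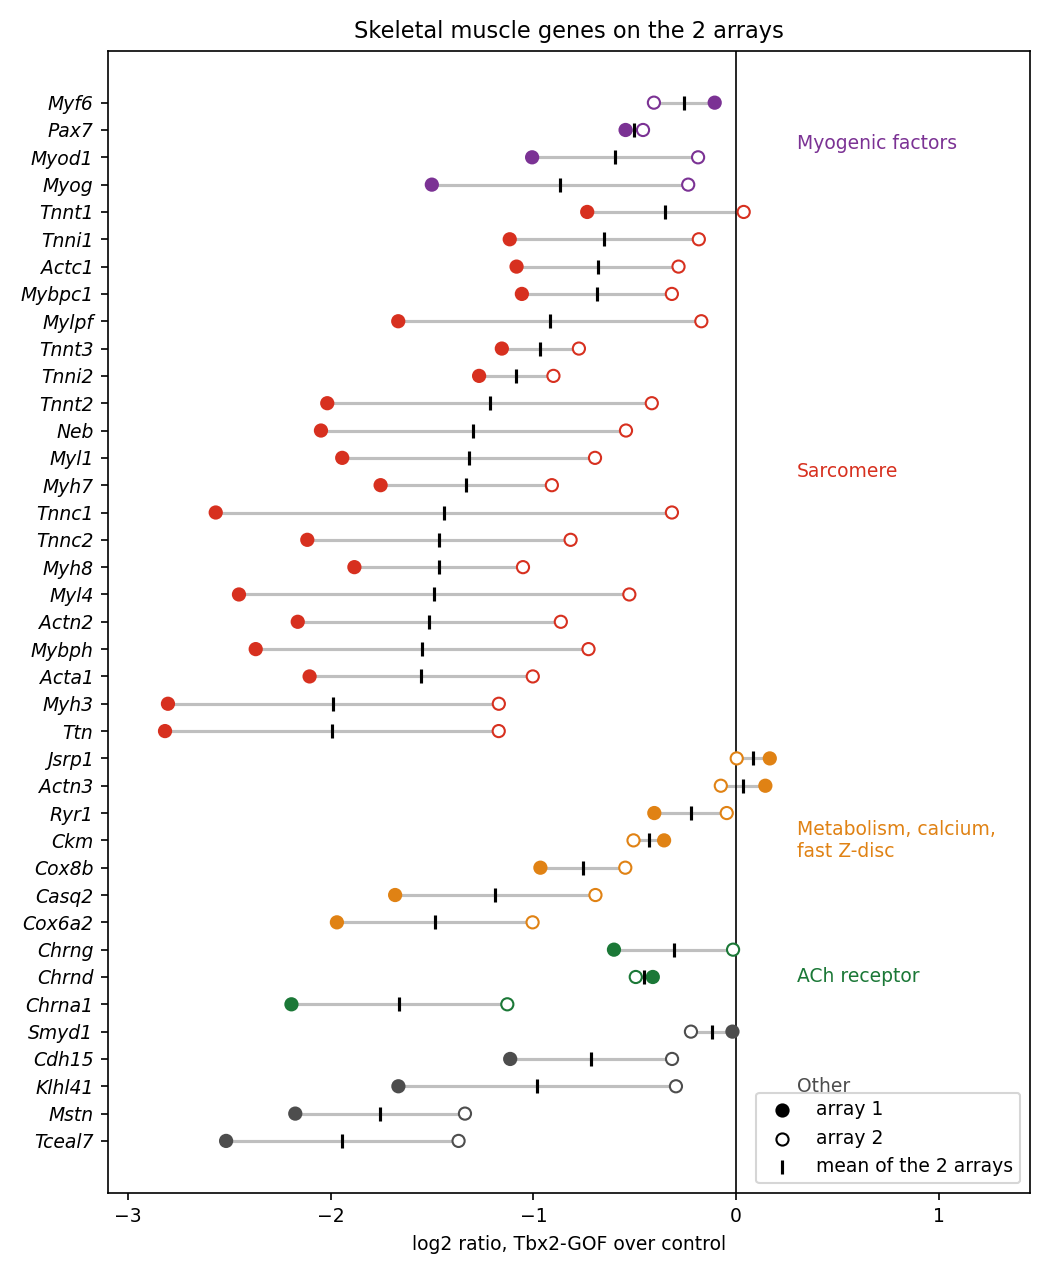
Log2 ratio of Tbx2-GOF over control for the 39 measured skeletal muscle genes on array 1 (filled circles) and array 2 (open circles), with the mean of the 2 arrays as a black tick, grouped by role. All 20 sarcomere genes lie farther left on array 1 than on array 2, and Jsrp1 and Actn3 lie near 0 on both.

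Among the factors, the ratio was lowest for Myog, which drives terminal differentiation. Myog had log2 levels of 11.79 and 11.72 in the control extracts of arrays 1 and 2, and 10.29 and 11.49 in the Tbx2-GOF extracts (probe on mm9 chromosome 1, 136188874 to 136188933). The Tbx2-GOF level of array 1 stood apart from the other 3. The 2 genotypes did not overlap, with both Tbx2-GOF levels below both control levels (16.3% of all genes tested). The ratios of Myog were -1.50 and -0.24, a mean of -0.87 ± 0.89. The Myog probe was printed 10 times on each array. Over the 9 spots not rejected, the SD was 0.07 on array 1 and 0.05 on array 2. This is the spread of repeat spots within an array and holds no difference between extracts or dyes.

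Myod1, the factor that commits cells to the muscle lineage, followed the same order. Its log2 levels were 9.03 and 9.14 in controls and 8.02 and 8.96 in Tbx2-GOF, with ratios of -1.01 and -0.19. The SDs over its 10 spots were 0.10 and 0.05. The low Tbx2-GOF level was again that of array 1. The genotypes did not overlap, with Tbx2-GOF below control (16.3% of all genes tested).

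Pax7 and Myf6 were dimmer, and their arrays lay closer together. Pax7, the marker of muscle progenitors, had log2 levels of 7.53 and 7.78 in controls and 6.99 and 7.32 in Tbx2-GOF, with ratios of -0.55 and -0.46. Myf6, a factor of differentiated fibres, had ratios of -0.11 and -0.41, and its levels overlapped between genotypes. With the software's processed signals, Pax7 was at -0.81 and Myf6 at -0.50. The median of these 4 factors was -0.55 (array 1 -0.78, array 2 -0.32), and 0 of them were 1.5-fold lower on both arrays.

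The median of the 20 sarcomere genes was -1.33 (array 1 -1.98, array 2 -0.71). All 20 were at least 1.5-fold lower on array 1 and 11 on array 2. In 19 of the 20 both Tbx2-GOF levels lay below both control levels (16.3% of all genes tested). Tnnt1, slow skeletal troponin T, was the exception, with ratios of -0.73 and 0.04.

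Farthest down were Ttn, the giant elastic protein titin, and Myh3, the embryonic myosin heavy chain. Myh3 had log2 levels of 13.504 and 13.65 in controls and 10.70 and 12.48 in Tbx2-GOF. This is 6.98-fold lower on array 1 and 2.25-fold lower on array 2, a mean of -1.99 ± 1.15 (mm9 chromosome 11, 66915724 to 66915783). Ttn had levels of 11.45 and 11.79 in controls and 8.63 and 10.62 in Tbx2-GOF, with a mean of -1.99 ± 1.16. For both genes the control levels lay close together, while the Tbx2-GOF level of array 1 was far below the other 3.

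The other myosin heavy chains were also lower on both arrays. Myh8, the perinatal form, had ratios of -1.88 and -1.05, and Myh7, the slow form shared with heart, -1.75 and -0.91. Their genotypes did not overlap, with Tbx2-GOF below control (16.3% of all genes tested). Among myosin light chains, Myl4, the embryonic and atrial form, had ratios of -2.45 and -0.53, Myl1 of -1.94 and -0.70, and Mylpf, the fast regulatory chain, of -1.67 and -0.17. Mylpf was well above background in Tbx2-GOF on 1 of 2 arrays and had a mean of -1.67 with processed signals in place of -0.92.

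Of the sarcomeric actins, Acta1, the skeletal form, had log2 levels of 12.10 and 12.64 in controls and 9.99 and 11.63 in Tbx2-GOF, with ratios of -2.10 and -1.003 (mm9 chromosome 8, 126416197 to 126416256). Actc1, the cardiac form that embryonic skeletal muscle also uses, had 14.91 and 15.00 in controls and 13.83 and 14.72 in Tbx2-GOF, with ratios of -1.08 and -0.28. Neither overlapped between genotypes, with Tbx2-GOF below control (16.3% of all genes tested). The actins are near-identical in coding sequence, so probes could share signal, which was not tested.

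The troponins, the calcium switch of the thin filament, differed in how alike the arrays were. The fast forms Tnni2 and Tnnt3 had ratios of -1.27 and -0.90, and of -1.16 and -0.78. Tnnc1, slow and cardiac troponin C, had ratios of -2.57 and -0.32, and Tnnt2, the cardiac and embryonic form, of -2.02 and -0.42. Tnnc2, fast troponin C, was at -2.12 and -0.82. Tnni1, the slow inhibitory form, was at -1.12 and -0.18.

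Tnnc1 shows the gap most clearly. Its log2 levels were 12.44 and 12.24 in controls and 9.88 and 11.93 in Tbx2-GOF, which is 5.93-fold lower on array 1 and 1.25-fold lower on array 2. The Tbx2-GOF level of array 2 was thus near the control levels. Whether this gap lies in extract, array or dye cannot be told apart.

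Genes that organise the filaments were lower as well. Actn2, the Z-disc actinin, had ratios of -2.16 and -0.86, Mybph, a myosin-binding protein, of -2.37 and -0.73, and Mybpc1, its slow relative, of -1.06 and -0.32. Neb, which sets thin-filament length, had -2.05 and -0.54 by its brighter probe and -0.26 and 0.04 by a dimmer one near background, so that the mean of its probes was -0.70.

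Several members have probes close together in the genome, and such pairs were not always alike. Whether other genes lie between them was not tested. Tnni2 and Tnnt3, with probes 68.2 kb apart on chromosome 7, were close in value on both arrays. Tnni1 and Tnnt2, 41.8 kb apart on chromosome 1, were at -1.12 and -2.02 on array 1 and -0.18 and -0.42 on array 2. In the same order of arrays, Mybph and Myog, 91.3 kb apart on chromosome 1, were at -2.37 and -1.50, then -0.73 and -0.24. Chrnd and Chrng, 9.43 kb apart on chromosome 1, were at -0.41 and -0.60, then -0.49 and -0.01. Myh3 and Myh8, 206 kb apart on chromosome 11, were at -2.80 and -1.88, then -1.17 and -1.05.

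Genes of metabolism, calcium handling and the fast Z-disc had a median of -0.43 over 7 genes, with means from -1.49 to 0.09. Cox6a2, a cytochrome oxidase subunit of heart and skeletal muscle, had log2 levels of 9.64 and 10.25 in controls and 7.67 and 9.25 in Tbx2-GOF, with ratios of -1.97 and -1.004. Casq2, a calcium store protein, had ratios of -1.68 and -0.69, and Cox8b, another oxidase subunit, of -0.97 and -0.55. None of these 3 overlapped between genotypes, with Tbx2-GOF below control (16.3% of all genes tested).

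Ckm, muscle creatine kinase, was dim, at 7.005 and 7.42 in controls and 6.65 and 6.92 in Tbx2-GOF, where it was well above background on 1 of 2 arrays. Its mean of -0.43 became -1.56 with processed signals. Ryr1, the calcium release channel, was at -0.40 and -0.05. Actn3, the fast Z-disc actinin, was at 0.14 and -0.07, and Jsrp1, a protein of the triad, at 0.17 and 0.00, with log2 levels between 11.54 and 11.71 in all 4 extracts. Both Actn3 and Jsrp1 were well above background in all 4 channels.

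The sarcomere median minus the median of this group was -0.90 on the log2 scale, with differences of -1.58 on array 1 and -0.21 on array 2. The sarcomere median minus that of the factors was -0.78, with -1.20 and -0.39. Both differences kept their sign in the 10 other ways of processing, the first between -0.95 and -0.66 and the second between -0.82 and -0.72. The 5 members outside the named roles had a median of -0.98. With processed signals theirs was -1.50 and the sarcomere median -1.53. By summed intensity the order of roles differed between arrays. Sarcomere genes were at 35.5% of control on array 1 and 71.4% on array 2. The receptor subunits were at 37.0% and 55.5%, and the 5 other members at 39.4% and 57.1%. The roles were compared on the contrast that chose the genes, so this too is a description.

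Of the acetylcholine receptor of embryonic muscle, the alpha, delta and gamma subunits were members, and their ratios differed. The beta subunit, Chrnb1, was on the list of other junction genes and was at -0.50 and 0.13. Chrna1, which holds most of the ligand-binding site, had log2 levels of 9.89 and 10.25 in controls and 7.70 and 9.12 in Tbx2-GOF, with no overlap (mm9 chromosome 2, 73404112 to 73404171). It was 4.58-fold lower on array 1 and 2.19-fold lower on array 2. Its dimmer second probe gave -1.16 and -0.60. Chrnd had ratios of -0.41 and -0.49, and Chrng, the foetal subunit, of -0.60 and -0.01. Both were dim, and with processed signals Chrnd was at -0.82 and Chrng at -0.86.

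Of the remaining members, Mstn, the secreted inhibitor of muscle growth, had log2 levels of 8.90 and 8.81 in controls and 6.72 and 7.47 in Tbx2-GOF, where it was well above background on 1 of 2 arrays. Its ratios were -2.18 and -1.34, and the mean of -1.76 became -2.89 with processed signals, so the size of the difference is uncertain. Tceal7, an X-linked gene, had levels of 11.27 and 12.05 in controls and 8.75 and 10.68 in Tbx2-GOF, 5.72-fold and 2.58-fold lower. For both genes the genotypes did not overlap, with Tbx2-GOF below control (16.3% of all genes tested).

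Cdh15, the cadherin of myoblasts, had ratios of -1.11 and -0.32, and Klhl41, a sarcomere-associated kelch protein, of -1.67 and -0.30 (mean -1.50 with processed signals in place of -0.98). Smyd1, a methyltransferase needed for myofibril assembly, was at -0.02 and -0.22 by its brighter probe and overlapped between genotypes. Its second probe, well above background in 1 of 2 extracts of each genotype, did not pass the filter and gave -0.50 and -0.03.

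Several genes had more than 1 probe. The 2 probes of Myh3 gave -2.80 and -2.55 on array 1 and -1.17 and -1.03 on array 2, and those of Tnnt3, Myl1, Mybpc1 and Chrna1 also gave ratios below 0 on both arrays. The remaining 3 Ttn probes and the second Myh8 probe were dim and did not pass the filter, with ratios on array 1 from -0.45 to 0.08. A probe near background compresses a ratio, so these are not read as a different behaviour of another transcript.

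Limma's moderated test over all genes called 9 of the 39 genes lower at an adjusted p under 0.05, against 59 genes called lower in all (0.280% of those tested), and 0 higher (0.360%, either direction 0.640%). At an unadjusted p under 0.05, 32 were lower (3.71% of all genes tested) and 0 higher (5.63%). The 9 were Myh8, Myh7, Acta1, Tnnt3, Tnni2, Cox6a2, Chrna1, Mstn and Tceal7. The contrast chose the members, so the count supports nothing. It does not follow the size of the ratio: Myh3 and Ttn were farther down than all 9, and the SDs of their arrays were 1.15 and 1.16, against 0.26 for Tnni2. The count was 4 with a normexp offset of 0, 5 with trend and robust estimation, 15 with scaling between arrays or without the filter, and 0 with processed signals, median centring or the series value table.

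In the single-channel levels, the arrays differed more for Tbx2-GOF than for control. Over the 39 genes the control level of array 1 differed from that of array 2 by a median of -0.16 on the log2 scale, and the Tbx2-GOF level by -1.02, while over all genes tested the medians were 0.01 and 0.01. The Tbx2-GOF level differed more between the arrays than the control level for 33 of the 39 genes and for 30.5% of all genes tested. The summed intensity of the 39 probes was 149940 and 165814 in the control extracts, and 57086 and 118500 in the Tbx2-GOF extracts. The latter were 38.1% of the control sum on array 1 and 71.5% on array 2. By sum and median the control levels were close to each other, and the Tbx2-GOF level of array 1 was well below that of array 2. With processed signals the medians were -0.27 for control and -1.40 for Tbx2-GOF. A shift between arrays, a dye effect of the genes and a difference between the extracts cannot be told apart in these levels.

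**Figure D2:**
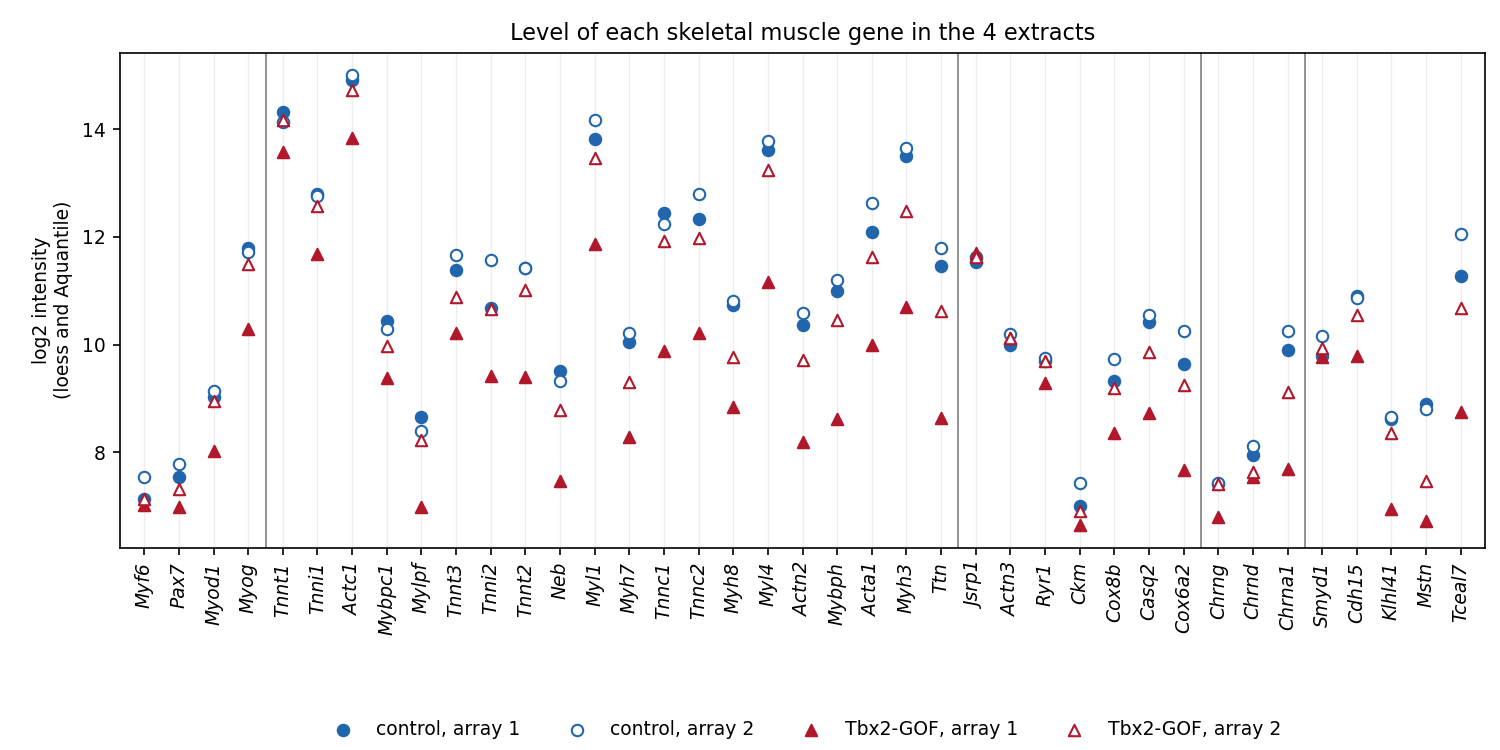
Log2 intensity of the probe used for each of the 39 skeletal muscle genes in the 4 extracts, control as blue circles and Tbx2-GOF as red triangles, filled for array 1 and open for array 2, with vertical lines between role groups. Levels are comparable within a gene and not between genes. For Myog, Myh3, Tnnc1 and Myl4 the control points and the open triangle lie well above the filled triangle.

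Other genes of skeletal muscle were taken from lists written by known role and not by how they moved, though with earlier results known. Of 120 listed genes 104 were measured. Limma called 5 lower and 0 higher (29 lower and 8 higher at an unadjusted p under 0.05), against 0.280% and 0.360% of all genes tested (3.71% and 5.63% unadjusted). On both arrays, 49 were lower and 18 higher of the 104, against 25.1% and 26.1% of all genes. Of the 104, 96 were well above background in all 4 channels. The rest passed the filter through control alone, which by itself favours ratios below 0 among them. The median of the 104 was -0.15 (array 1 -0.17, array 2 -0.08). The 104 genes lay nearer to all genes tested than the 39 did. The 39 were chosen on this contrast and left out of these lists, so nothing is read from that gap.

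The 5 were Ldb3, a Z-disc scaffold (-1.43 and -0.99), Cav3, muscle caveolin (-1.65 and -0.86), Pgam2, muscle phosphoglycerate mutase (-1.29 and -0.79), Myom2, an M-band protein (-1.22 and -0.85), and Cacng1, a calcium channel subunit (-0.90 and -0.80). With processed signals, Cacng1 was at -1.42.

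By role, the median was -0.22 for 35 contractile and Z-disc genes, -0.17 for 16 genes of calcium handling, -0.32 for 15 of fusion, membrane and adhesion, -0.12 for 6 of the junction and -0.19 for 9 of metabolism. For 23 factors of myogenic control it was 0.03, with 0 called by limma. At an unadjusted p under 0.05, 1 was lower and 5 higher (3.71% and 5.63% of all genes tested). Among these factors the largest ratios were those of Vgll2, a muscle TEAD cofactor (-2.41 and -0.74), Meox2 (1.01 and 0.43) and Heyl (1.07 and 0.32). Pax3, the early progenitor factor, was at 0.43 and 0.42. Many genes of this list, Meox2 and Heyl among them, are expressed in other mesenchyme too. At the junction, the largest ratios were those of Colq (-0.44 and -0.76), Musk (-0.11 and -0.61) and Chrnb1 (-0.50 and 0.13). Musk was not well above background in Tbx2-GOF on either array, so the size of its difference is uncertain.

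Markers of other tissues moved in patterns of their own, and their part in the skeletal muscle ratios was not tested. Of 9 heart markers 7 were measured, with a median of -0.14 and 0 called by limma. At an unadjusted p under 0.05, 2 were lower and 1 higher (3.71% and 5.63% of all genes tested). Of the 7, 5 were well above background in all 4 channels. Nppa and Mybpc3 did not pass the filter. The largest ratios were those of Sln, which embryonic skeletal muscle also expresses (-2.62 and -0.41), Myl7 (-0.81 and -0.79) and Nppb (0.31 and 0.78). The summed heart intensity was 5417 and 6120 in controls and 2722 and 4764 in Tbx2-GOF, with Sln included. Smooth muscle markers had a median of -0.02 over 7 of 8 genes, with 0 called by limma. At an unadjusted p under 0.05, 0 were lower and 0 higher (3.71% and 5.63% of all genes tested). The largest of these ratios were those of Actg2 (0.08 and -0.91), Cnn1 (-0.03 and -0.67) and Tagln (0.43 and 0.07). Their summed intensity ran from 46223 to 78120 in controls and from 50491 to 75255 in Tbx2-GOF.

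Liver and plasma protein markers were lower, but in another order over the arrays. All 8 were below 0 on both arrays (25.1% of all genes tested), with medians of -1.06 and -1.51. Farther down on array 2 were 7 of the 8, while 51.0% of all genes tested were farther down on array 1. Limma called 5 of them lower (0.280% of all genes tested): Afp (-2.75 and -3.15), Alb (-1.91 and -2.39), Ahsg (-1.57 and -2.14), Serpina1a (-1.24 and -1.68) and Ttr (-0.89 and -1.33). At limma's unadjusted p under 0.05, 8 were lower (3.71% of all genes tested). Of the 8, 4 were well above background in all 4 channels. In Tbx2-GOF, Ahsg and Ttr were so on 1 of 2 arrays and Apoa1 and Fgb on neither, so the sizes and the order of arrays are uncertain for these 4. Their summed intensity was 5261 and 6582 in controls and 2365 and 2529 in Tbx2-GOF. Nerve markers were higher, with medians of 0.65 and 1.75 over 7 genes. Of these, limma called Fabp7 (1.40 and 1.75) and Th (0.93 and 1.74) higher (0.360% of all genes tested). At limma's unadjusted p under 0.05, 7 nerve markers were higher (5.63% of all genes tested). Their control level differed between the arrays by a median of 0.86 and their Tbx2-GOF level by -0.02, the reverse of the skeletal muscle genes. Their summed intensity was 34853 and 20333 in controls and 61075 and 62523 in Tbx2-GOF. For the liver and plasma markers the difference between arrays was -0.36 in control and -0.11 in Tbx2-GOF, smaller than the difference between genotypes.

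**Figure D3:**
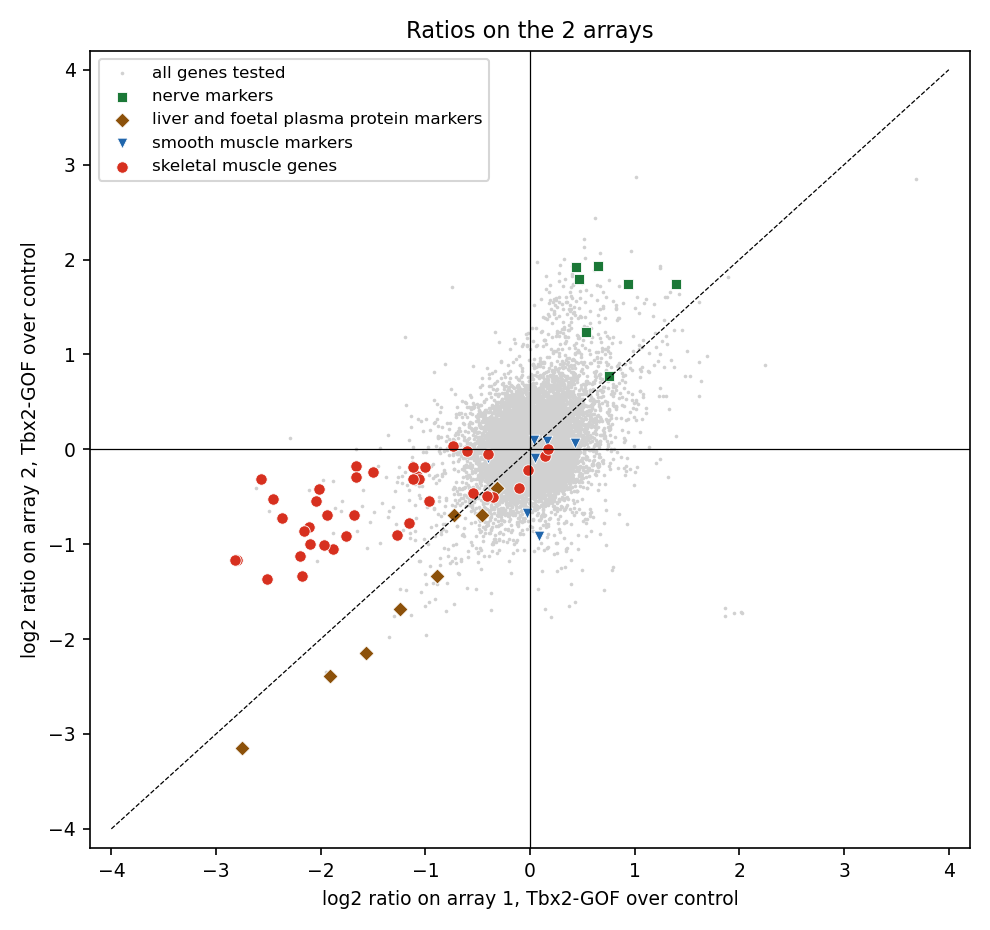
Log2 ratio of Tbx2-GOF over control on array 1 (x) and array 2 (y) for all 21097 genes tested (grey), the 39 skeletal muscle genes (red) and 3 marker lists, with a dashed line of equal ratios. Of the skeletal muscle genes 33 lie above the line, 7 of the 8 liver and plasma markers lie below it, and the nerve markers lie above 0 on both axes.

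**Figure D4:**
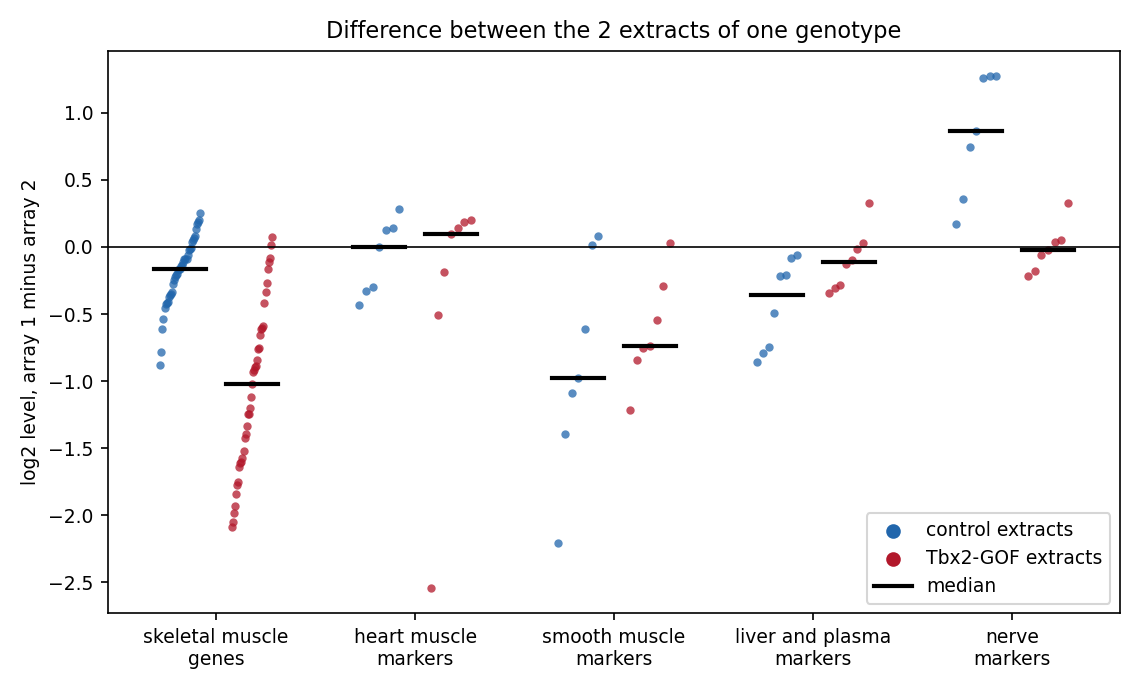
Difference in log2 level between the 2 arrays for the control extracts (blue) and the Tbx2-GOF extracts (red), with a point per gene and the median as a bar, for the skeletal muscle genes and 4 marker lists. The skeletal muscle medians are -0.16 in controls and -1.02 in Tbx2-GOF, and the nerve medians 0.86 and -0.02.

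Across the 39 genes a brighter control level went weakly with a lower ratio (Pearson's r = -0.34, Spearman's rho = -0.35). Genes share the extracts, and the offset of 50 pulls dim ratios toward 0, so the order among dim members is uncertain. Pax7, Myf6, Ckm, Chrnd and Chrng were among these dim members.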

How the data were processed

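The submitters' processing notes name Agilent Feature Extraction, version 10.7.3.1, as the source of the scanner files. Mean spot and median local background signals are intensity values as scanned, and processed signals are intensity values background-subtracted, detrended and dye-normalized by the software, per the file headers. The deposited log ratio is on a log10 scale, red divided by green. The series value table the authors deposited holds a signed fold with no stated scale, centring or direction. With positive taken as Tbx2-GOF over control, 99.2% and 98.8% of its probes above background matched that log ratio within 0.01, its median was 1 on both arrays, and how 31.5% and 31.1% of its values came to be exactly 1 is unknown.

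Here, limma 3.58.1 in R 4.3.3 was used: normexp with an offset of 50, then loess within arrays (span 0.3), with control and rejected spots at weight 0. Feature Extraction rejected 209 and 391 spots as outliers, and 0 were saturated. Ratios were turned by the labelled dyes, so positive is higher in Tbx2-GOF. Spots of a probe were averaged. A probe was kept where either genotype was well above background on both arrays (26471 of 39429 probes), and the brightest kept probe stood for its gene. A member bright in 1 genotype alone thus passed through that genotype (Mylpf, Ckm, Chrng, Mstn). Gene names were updated through RefSeq accessions of GRCm38.p6, which matched 67.0% of probes. lmFit and eBayes tested 21097 genes, two-sided, with Benjamini-Hochberg adjustment at 0.05 and 1 residual degree of freedom. The variance behind each p-value was moderated toward that of all genes (6.36 prior degrees of freedom). P-values thus do not rest on the gap between a gene's 2 arrays alone. They hold no other replication than these 2 arrays, and the difference between the arrays may be technical. Levels of single channels came from loess and Aquantile normalization, and are open to dye bias. Probe coordinates (mm9, counted from 1) come from the scanner files. The number of arrays limits the precision.

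The members, role groups and lists were chosen with earlier results of these data known. All members are named. From other lists, genes past the adjusted threshold are named, or else the 3 with the largest ratios. Pax3, Apoa1, Fgb, Acta2, Myh11, Des and Smtn were named after their values were seen. Alternatives were: offset 0, no background correction, processed signals, median centring, scaling, no filter, a strict filter (both genotypes on both arrays), the mean of probes, trend and robust estimation, the series value table and each array alone.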

Additional observations from a re-analysis of the deposited data

How the results depend on the processing

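The median of the 39 genes kept its sign in the 10 alternative settings, from -1.34 to -0.92, and was -1.67 to -0.51 on single arrays. Over these settings, 412 values of 44 named genes stayed within the SD of the arrays and 24 moved further, with no change of sign. The SD is each gene's own over 2 arrays, so a gene whose arrays differed could shift far and still count as staying. Mylpf, with an SD of 1.06, did so on going from -0.92 to -1.67 with processed signals. Pax7, with an SD of 0.06, counted as moved at -0.43 without background correction. The tally is thus no measure of the size of the shifts. On single arrays Tnnt1 ranged from -0.73 to 0.038 and Actn3 from -0.075 to 0.14, which turned the sign of each on array 2. The median of the metabolism, calcium and fast Z-disc group was -0.71 with offset 0, -0.87 with processed signals and -0.70 with the series value table, and ranged from -0.51 to -0.40 on single arrays. That of the receptor subunits was -0.59 with offset 0, -0.86 with processed signals, -0.82 with the series value table and -1.06 with the strict filter, which left out Chrng, and -0.60 to -0.49 on single arrays. With processed signals, chosen after seeing the data, the difference between arrays was -1.40 for the Tbx2-GOF level and -0.27 for the control level.

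Limma's counts moved most. Of all genes 135 were called, 313 with scaling, 276 with no filter, 211 with the mean of probes, and 0 with processed signals, median centring or the series value table (2055, 1219 and 2060 at an unadjusted p under 0.05). Of the members, 9 were called, 4 with offset 0, 5 with trend and robust estimation, 15 with scaling and 15 with no filter, and 0 in those 3 settings (30, 24 and 32 unadjusted). Of the other skeletal muscle genes, 5 were called, 11 with scaling, 10 with no filter and 0 in those 3 settings (38, 29 and 37 unadjusted). The cause was not tested. Dim signal limits Myf5, Ckm, Chrng, Mylpf and Mstn.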

Other observations

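Several smooth muscle markers had lower levels on array 1 than on array 2 in both genotypes. Over 7 markers, the log2 level on array 1 minus that on array 2 had a median of -0.97 in controls and -0.74 in Tbx2-GOF. The difference was -2.21 and -1.22 for Actg2, enteric smooth muscle actin, -1.40 and -0.75 for Cnn1, calponin, -1.09 and -0.74 for Tagln, -0.97 and -0.84 for Acta2, and -0.61 and -0.54 for Myh11. Des, at 0.01 and -0.29, and Smtn, at 0.08 and 0.03, did not show it. The median over the 39 skeletal muscle genes was -0.16 in controls and -1.02 in Tbx2-GOF.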
